A study of Mus musculus with 12 samples.

Results

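The miR-183, miR-182 and miR-96 cluster is a group of 3 small regulatory RNAs (miRNAs) cut from neighbouring hairpins on mouse chromosome 6. They were taken by name from a TaqMan real-time PCR panel of pancreatic islets, as the assays named miR-183, miR-182 or miR-96 without the # that marks a minor strand. These are 3 of the 488 miRNA names without that mark on the panel, with 1 assay each. Islets, the hormone-secreting cell clusters of the pancreas, came from male C57BL/6 offspring aged 2 to 3 months. The 6 LP0.5 samples came from offspring whose mothers ate a low-protein diet through pregnancy, and the 6 Control samples from offspring of mothers on a control diet. The comparison asks which islet miRNAs differ in adult sons after that exposure. No source used here says whether a sample is 1 animal or several pooled animals, nor which litters the sons came from.

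The hairpins of this cluster are made from a shared precursor transcript, so the mature miRNAs are often found together. A miRNA pairs mainly through its seed, bases 2 to 8 from its 5′ end, with messenger RNAs that it then represses. The cluster is best known from sensory cells of the eye and ear and is also expressed in neuroendocrine cells such as those of the islet. All members are known to repress the transcription factor Foxo1, which acts in insulin signalling and in beta cell growth and stress responses.

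The mature sequences show how alike the members are where they contact their targets. They are the mouse 5p strands in RefSeq (GRCm38.p6), matched by name for 3 of 3 members, and the capitals mark the seed.
miR-183: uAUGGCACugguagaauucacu
miR-182: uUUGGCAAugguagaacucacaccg
miR-96: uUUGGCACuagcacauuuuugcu

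No seed is shared in full between members. From miR-96 to miR-182 the seed differs by the substitution C8A, and from miR-96 to miR-183 by U2A, with positions counted from the 5′ end. MiR-183 and miR-182 differ at both positions, A2U and C8A, but are nearly alike outside the seed. Their first 22 bases match at 18 positions, against 13 of 22 for miR-96 and miR-183 and 12 of 23 for miR-96 and miR-182. A search of the mature mouse miRNAs in the RefSeq table found the seed of miR-96 once more, in miR-1271-5p, which has no assay on the panel. No other entry carries the seed of miR-183 or of miR-182. No panel assay other than those of the members therefore reads a miRNA of the same seed among the entries of that table. The assays of miR-182 and miR-96 carry mouse names and that of miR-183 a human name.

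The hairpins lie on the minus strand of chromosome 6, in the order Mir183, Mir96, Mir182 in the direction of transcription. In GRCm38.p6 Mir183 spans chr6:30169668-30169737, Mir96 chr6:30169446-30169551 and Mir182 chr6:30165918-30165992. Mir183 and Mir96 are separated by 116 bases, and Mir96 and Mir182 by 3453 bases. All 3 hairpins fall within the long noncoding RNA gene Mirc35hg, between the protein-coding genes Nrf1 and Ube2h. Whether they are exonic or intronic there was not analysed here.

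The Mir183 hairpin is shown because it is the only one of the 3 with both strands on the panel. The capitals mark the 5p strand, then the 3p strand, with 17 bases of loop between them.
Mir183: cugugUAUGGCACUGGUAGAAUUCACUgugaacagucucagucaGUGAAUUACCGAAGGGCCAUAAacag

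The values are ratios, 1 per assay spot, headed as LP0.5 against Control, with no replicate values and no error. A ratio compares both diets and says nothing of how abundant a miRNA is, so the members cannot be ordered by level, and values in single samples were not analysed here. No difference below has a test or a replicate check. In bulk islets fewer cells of a type and less RNA per cell cannot be told apart.

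The authors' deposited table gives miR-183 a ratio of 1.45, which by the heading puts it higher in LP0.5 islets. MiR-182, the member whose sequence is most like it, has 1.15 in the authors' deposited table. MiR-96, known for seed mutations that cause progressive hearing loss, has 0.946 in the authors' deposited table. On the log2 scale these ratios are 0.54, 0.20 and -0.08. The cluster thus lay on both sides of 1 in the deposited ratios, with 2 members above and 1 below, and miR-183 stood farthest from 1.

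The direction rests on the column heading alone. The study is known for naming miR-199a-3p among miRNAs raised in low-protein islets, while the authors' deposited table lists it at 0.422, opposite to that. MiR-342-3p, which the study is also known for naming as raised, stands at 1.24 in the authors' deposited table and so fits the heading. Read the other way round, the ratios of miR-183, miR-182 and miR-96 would be 0.688, 0.871 and 1.06.

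The 3 assays share 1 of the panel's 2 assay sets, called set A here, which holds 304 miRNA spots with a ratio. In that set 145 spots (47.7%) were listed above 1 and 159 (52.3%) below, and the median ratio was 0.976. The 25th and 75th percentiles of the set were 0.796 and 1.19. MiR-183 lay above the upper one, at percentile 86.2, with 41 spots listed higher; with the ratio turned round it would lie below the lower quartile, with 262 spots above it. MiR-182 and miR-96 lay between them, at percentiles 70.4 and 44.7. None of the 3 members reached 1.5-fold from 1 in either direction, a limit passed by 28.9% of the set. At least 1.5-fold above 1 were 40 spots (13.2%) and at least 1.5-fold below 1 were 48 (15.8%), a near balance that became 34 above (11.2%) and 71 below (23.4%) relative to 4 other small RNA controls. A share of 2 in 3 above 1 is too small a count to be set apart from the set's own 47.7%.

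**Figure D1:**
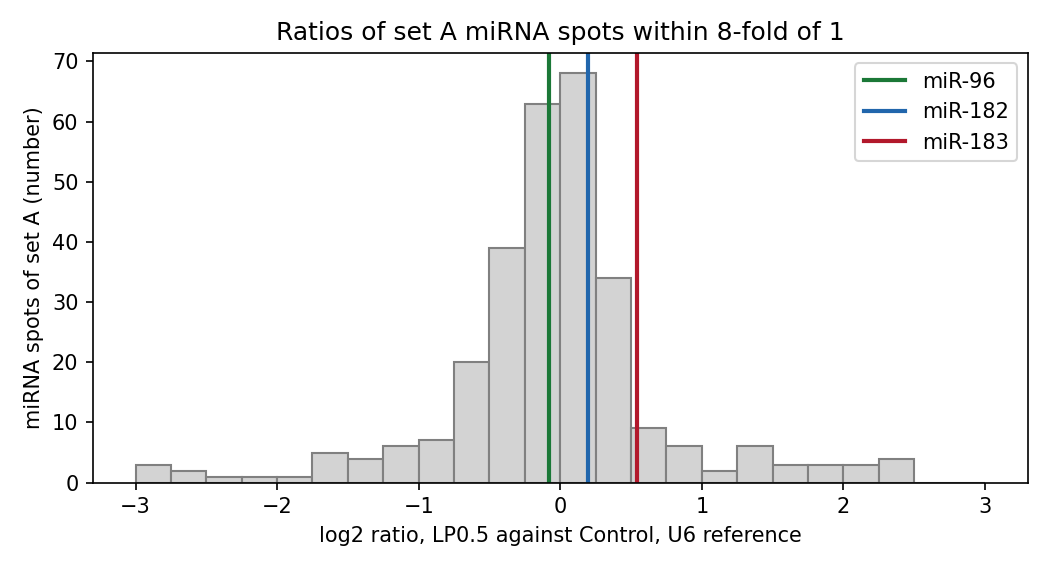
Number of miRNA spots of assay set A by log2 ratio of LP0.5 against Control, in steps of 0.25, with the 3 members as vertical lines. The bars hold 290 spots within 8-fold of 1, and 14 spots beyond are not drawn. MiR-96 and miR-182 fall in the central peak and miR-183 just above it.

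The ratios are relative to U6, a small nuclear RNA used as the reference, and the members' side of 1 depended in part on that choice. All 4 other small RNA controls had a median above 1 in set A. Their medians over 8 spots were 1.09 for U87, 1.10 for snoRNA202, 1.19 for Y1 and 1.21 for snoRNA135. With the mean of these 4 controls as the reference, miR-183 was at 1.27, miR-182 at 1.00 and miR-96 at 0.825. By that reference 29.6% of the set's spots were above 1 and 70.4% below, and none of the 3 members reached 1.5-fold, a limit passed by 34.5% of the set. Taken one control at a time, miR-183 ran from 1.20 to 1.33 and miR-96 from 0.781 to 0.865. MiR-183 was above 1 and miR-96 below 1 under each of the 9 references shown in the plot of ratios by reference. MiR-182 ran from 0.948 to 1.05 and lay below 1 with snoRNA135 or Y1 as the reference. On the log2 scale miR-96, not miR-183, was farthest from a ratio of 1 with snoRNA135, Y1 or the 4 controls of the same block. With the median of the set's miRNA spots as the reference, which assumes most miRNAs alike between the diets, miR-183 was at 1.49, miR-182 at 1.18 and miR-96 at 0.969. Whether U6 itself differed between the diets was not tested.

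**Figure D2:**
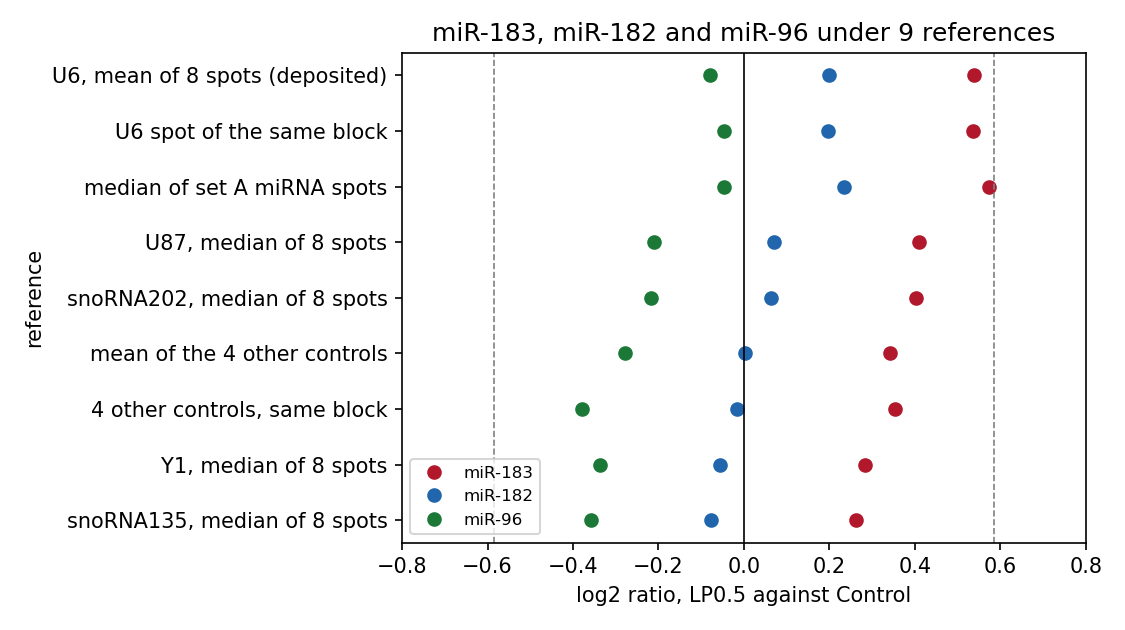
Log2 ratio of LP0.5 against Control for each member under the deposited U6 reference and 8 others. Dashed lines mark 1.5-fold. MiR-183 is highest and miR-96 lowest in each row, while miR-182 crosses 0.

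The distances between members do not depend on a reference shared by the set, though they change with a reference taken block by block. The ratio of miR-183 was 1.54-fold that of miR-96 and 1.27-fold that of miR-182, and the ratio of miR-182 was 1.21-fold that of miR-96. The widest gap was between miR-183 and miR-96, the members whose hairpins are closest on the chromosome. The members with the most similar sequences, miR-183 and miR-182, lay 1.27-fold apart.

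These distances can be set beside repeated measurements on the same panel. In set A the 40 control spots, 8 for each of 5 small RNAs, lay within 1.42-fold of their own control's median, and the 95th percentile of that deviation was 1.24-fold. Without U6, on which the ratios were scaled, that percentile was 1.26-fold over 32 spots. Distances between members compare spot with spot, and spots of 1 control can lie farther from each other than from their median. The snoRNA135 spots ran from 0.850 to 1.56, a wider range than the gap between miR-183 and miR-96. Spots of U6, snoRNA202, U87 and Y1 ranged less widely than that gap. Relative to U6 the ratio of miR-183, at 1.45, was farther from 1 than any of the 40 spots was from its own median. It was not farther from 1 than every control spot, as the highest snoRNA135 spot had 1.56. Relative to the mean of the 4 other controls, at 1.27, miR-183 did not exceed the largest deviation of a spot from its own median. Such repeats share the same RNA samples and leave out the spread between animals. In the blocks of the panel that hold the members, the authors' deposited table gives U6 spots of 0.977, 1.00 and 1.00, and dividing by them left miR-183 at 1.45, miR-182 at 1.15 and miR-96 at 0.968. The ratios were scaled on U6, and the 12 spots of the 4 other controls in these blocks were less even, from 1.04 to 1.43. Relative to the mean of those 4 controls in its own block, miR-183 was at 1.28, miR-182 at 0.989 and miR-96 at 0.769. Different assays of 1 miRNA name were less alike. Over 38 such pairs the median difference was 1.31-fold, and 14 pairs (36.8%) lay farther apart than miR-183 and miR-96. The members' differences were inside the range of these pairs. The pairs could join assays of both sets or assays named for different species, so a difference in reference can enter them. The members share a set, so no difference between the references of the sets enters their distances. The pairs thus do not show how far apart assays within set A lie. Each member lies in a different block, so a difference between blocks can enter. With the 4 other controls of the same block every distance between members was wider than in the deposited ratios. With the U6 spot of the same block miR-183 and miR-96 were slightly closer.

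The minor strand of the Mir183 hairpin, miR-183-3p, was measured by an assay of set B under a starred human name. It does not count among the 3 members. The authors' deposited table lists it at 1.02, near the middle of its set (percentile 46.9 of 262 spots). The main strand from the same hairpin was 1.42-fold higher in ratio. Over 73 hairpin names with a ratio for both strands the median difference between strands was 1.47-fold, and 32 of them (43.8%) had strands closer together than those of miR-183. Relative to U6 the strands of miR-183 thus differed by about as much as strands of other hairpins did. The assays lie in different sets, so this difference also depends on the reference. In set B the 8 spots of a plant miRNA, which has no mouse target, all have a ratio in the authors' deposited table, from 2.59 to 3.37, while in set A 2 of its 8 spots do (0.139 and 1.96). With the mean of the 4 other controls the minor strand was at 0.942, and at 0.880 without 1 outlying U87 spot of set B. Taken one control at a time, it ran from 0.684 with Y1 to 0.988 with U87. With Y1 the main strand was at 1.22, so the strands lay farther apart than relative to U6. With snoRNA135, snoRNA202 or U87 they lay closer together than relative to U6.

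Members of other clusters on the panel ranged from close together to far apart. Among miRNA genes within 10 kb of each other on 1 strand, 22 other clusters had at least 2 names measured in set A, each name with a single hairpin in the RefSeq table. Their median range, highest over lowest member, was 2.04-fold, against 1.54-fold here, and 9 of the 22 had a narrower range. Of the 4 other clusters with 3 names measured, 1 had a narrower range. This was miR-200b, miR-200a and miR-429, an epithelial cluster, at 1.35-fold. The others ranged from 2.12-fold for miR-363, miR-20b and miR-106a to 111-fold for the embryonic miR-302a, miR-302b and miR-367. Members lay on both sides of 1 in 11 of the 22 clusters, as in this one. The value of a name was the mean of its set A assays without #. For some names, such as miR-125a, this joined the 5p and 3p strands, and for others assays named for different species. Each member of the miR-183 cluster has 1 assay. A range widens with the number of members and with poorly detected assays, and the detection behind these ratios was not analysed here.

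**Figure D3:**
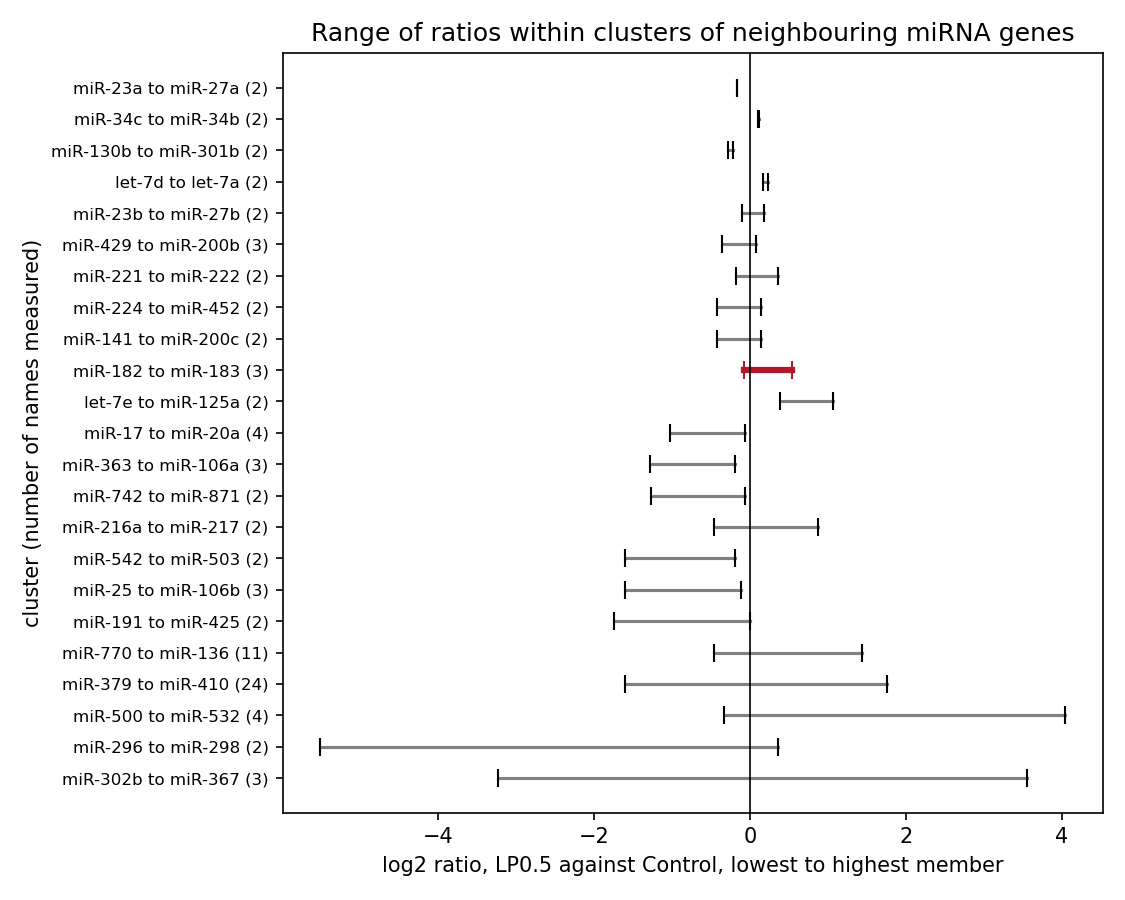
Log2 ratio of the lowest and highest member (ticks joined by a line) for each of 23 clusters of neighbouring miRNA genes in assay set A, ordered by range, with the number of names measured in parentheses. The miR-183, miR-182 and miR-96 cluster (red), from -0.08 to 0.54, has the second narrowest range of the 9 clusters with 3 or more names.

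Other miRNAs known from islet, neural and neuroendocrine cells were listed around 1. All 22 names on this list had a ratio. The median was 1.02, with 12 above 1 and 10 below, beside 47.7% and 52.3% of all set A spots. The limit of 1.5-fold was passed by none upward and by 4 downward, beside 13.2% and 15.8% of all set A spots. MiR-375, the hallmark miRNA of islet endocrine cells, stood at 1.17 in the authors' deposited table, close to miR-182. MiR-7a, a brake on beta cell proliferation, was read by an assay named miR-7, whose value in the authors' deposited table was 0.918. The miR-200 family keeps epithelial cells epithelial. Its ratios in the authors' deposited table were lowest for miR-141, at 0.744, followed by miR-429 at 0.782 and by miR-200a at 0.822. The miR-200b assays were at 1.06 and 1.07 and the miR-200c assays at 1.11 and 1.13, again from the authors' deposited table. The 4 names past the limit downward had ratios in the authors' deposited table of 0.523 (miR-7b), 0.632 (miR-211), 0.558 (miR-9) and 0.613 (miR-338-3p). MiR-183 was listed higher than every name on this list, whose highest was miR-124 at 1.27. With the ratio turned round it would be the lowest, and the 4 names past the limit would pass it upward. With the mean of the 4 other controls as the reference the median of the list was 0.891, with 4 above 1 and 18 below, beside 29.6% and 70.4% of the set. By that reference 6 names passed 1.5-fold downward, beside 23.4% of the set.

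MiRNA markers of non-endocrine cells had no common direction. The median ratio was 0.958 for 4 acinar miRNAs (range 0.726 to 1.32, 1 above 1) and 0.794 for 2 endothelial ones (0.647 to 0.975, none above 1). The highest acinar value is miR-217, the mean of 2 assays, and with set A assays alone it was 1.83. For 5 fibroblast and stellate cell miRNAs the median was 0.459 (0.403 to 2.66, 2 above 1). That median is miR-143, the mean of an assay at 0.190 in set B and one at 1.11 in set A, and with set A assays alone the median was 1.11, with 3 above 1. The median was 1.20 for 5 blood cell miRNAs (0.305 to 1.78, 3 above 1). For 5 miRNAs of duct and other epithelium it was 0.822 (0.744 to 1.12, 2 above 1). These 5 are the miR-200 family names already counted in the islet list, so they do not stand for non-endocrine cells alone. The levels of these markers were not analysed here, and their part in the ratios of miR-183, miR-182 and miR-96 was not tested.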

How the data were processed

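RNA of hand-picked islets was read with FAM-labelled TaqMan probes, per the labels' protocols. The submitters' processing notes name limma without its role or version. The ratio table deposited by the authors holds 1 linear fold value for each spot, which per the file headers sets L.05 against Control. It covers 846 spots in 16 blocks (750 of them for miRNAs) and leaves 190 spots empty. A second table names the spots. Its 12 columns of per-sample values match no sample label and were used in no step, so the planned limma fit was not run. In either assay set the 8 U6 spots average to a log2 ratio of 0, so ratios are relative to U6 within a set. The sources used here give no averaging method, detection limit or replicate error.

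Ratios were converted to log2. Alternative references were subtracted within a set or block, as the mean of 4 controls, the median of 1 control's 8 spots, or the median of miRNA spots. A percentile is the share of a set's miRNA spots with a lower ratio. Sequences and gene neighbours come from RefSeq tables of GRCm38.p6. The files name no build. MiRNA genes up to 10 kb apart on 1 strand formed a cluster. Functions were tested on simulated data. The members and lists were chosen with earlier results of these data known. Named are the members, the starred strand of their hairpins, miRNAs of the same seed, the controls and, from the islet list, names at least 1.5-fold from 1, miR-375, miR-7a and the miR-200 family. MiR-124, miR-143, miR-217, miR-199a-3p, miR-342-3p and the clusters of 3 were named after their values were seen. Python 3.11.15, numpy 2.4.6, pandas 2.3.3 and matplotlib 3.10.9 were used.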

Additional observations from a re-analysis of the deposited data

How the results depend on the processing

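The single-control and same-block references and the use of set A assays alone were chosen after seeing the data. MiR-183 stayed above 1 and miR-96 below 1 under all 8 other references run, and neither reached 1.5-fold. On the log2 scale, from 0.54, 0.20 and -0.08, the ratios of miR-183, miR-182 and miR-96 went to 0.34, 0.0024 and -0.28 with the mean of the 4 other controls. They went to 0.26, -0.077 and -0.36 with snoRNA135 and to 0.28, -0.057 and -0.34 with Y1, so miR-182 reversed under both. With the 4 other controls of the same block they were 0.35, -0.016 and -0.38, and miR-182 reversed again. With the starred strand averaged in, miR-183 was at 0.29, at log2. The median of the islet list reversed from 0.03 to -0.17 with the 4 other controls. At 2-fold, 28 spots of set A were above and 30 below, in place of 40 and 48. The references of a whole set move each of its ratios by 1 constant, and the same-block ones do not. Each member has 1 assay, so no setting for repeated assays was run, and the settings that need per-sample values (cycle filters, leaving out replicates) were not run. No paired analysis was possible because the per-sample columns match no sample label. The spread between animals limits every value and could not be judged from ratios. Spots of the plant miRNA were listed in both sets, so a listed ratio does not show that a target was detected.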
